A study of Rattus norvegicus with 6 samples.

Results

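The enzymes that split and burn sugar for energy were followed in rat carotid arteries through 5 array probes of 4 genes, out of 38321 non-control probes on each array. The probes were all those named by a RefSeq transcript of Ldha (2 probes), Pgk1, Pdk3 or Sdha, and each passed the filter on dim signals that left 24718 probes for testing. Of the 38 genes that could be named on the array, they are 4. The 6 arrays held total RNA of the common carotid artery of Sprague-Dawley rats, adult males of 250 to 300 g, with 3 arrays labelled sham and 3 balloon-injured. One protocol, with phenobarbital anaesthesia (50 mg/kg) and collection of the arteries after 2 weeks, is given for the samples of both groups. In the injured rats a balloon catheter damaged the inner lining of the right common carotid artery, and their labels put collection at 14 days after the injury. Some labels call the control arteries sham, while others call them uninjured or normal, and it is not settled here whether the control rats had an operation. The labels do not say that each array came from a different animal, so p-values measure only the spread between these samples. RNA came from whole arteries, where fewer cells of a type and less RNA per cell cannot be told apart.

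In glycolysis a cell breaks glucose down to pyruvate in the cytosol. Pgk1, phosphoglycerate kinase, catalyses the first ATP-forming step of that pathway, and Ldha, the A subunit of lactate dehydrogenase, turns pyruvate into lactate and so restores the cofactor that glycolysis uses up. Pyruvate can instead enter mitochondria, and Pdk3, a pyruvate dehydrogenase kinase, limits this by switching off the enzyme complex that feeds it into the citric acid cycle. Sdha is the flavoprotein subunit of succinate dehydrogenase, which serves both the citric acid cycle and the respiratory chain as complex II. In injured arteries smooth muscle cells migrate and divide to build a new inner layer, and dividing cells are known for their high use of glycolysis.

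Ldha and Pgk1 are textbook targets of the hypoxia-inducible factor HIF-1, whose DNA element has the core ACGTG or GCGTG. The 250 bases before the start of Ldha and of Sdha are shown because the levels of these genes differed in pattern between the arrays, as described further on. The Pdk3 window is counted below but not shown. Whether the matches have a part in any of these patterns was not tested. Sequences are RefSeq's, build GRCr8, 5′ to 3′ on the strand of the gene, with matches to either core on either strand in capitals. Ldha lies at chr1:106507842-106508091 and Sdha at chr1:30764303-30764552, both on the plus strand.
Ldha: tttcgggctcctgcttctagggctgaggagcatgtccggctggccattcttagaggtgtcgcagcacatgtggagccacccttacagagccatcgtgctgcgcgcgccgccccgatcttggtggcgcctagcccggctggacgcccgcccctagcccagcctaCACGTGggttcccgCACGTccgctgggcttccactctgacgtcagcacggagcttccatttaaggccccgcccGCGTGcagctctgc
Sdha: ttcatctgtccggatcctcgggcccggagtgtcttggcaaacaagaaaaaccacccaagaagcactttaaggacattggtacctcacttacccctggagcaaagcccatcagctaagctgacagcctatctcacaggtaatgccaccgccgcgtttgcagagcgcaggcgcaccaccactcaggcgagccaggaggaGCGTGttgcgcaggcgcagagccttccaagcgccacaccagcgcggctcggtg

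The Ldha window held 4 matches, starting at -87, -86, -73 and -14 from the first base of the gene, of which those at -87 and -86 overlap as one palindrome read on both strands. The Sdha window held 1 match, at -53, and the Pdk3 window, from the table's entry on chromosome X, held 5. The table used here gave windows for these 3 genes and none for Pgk1. Of 33469 promoter windows of that length, 36.7% held at least 1 match and 2.44% held 4 or more. The windows of Ldha, Pdk3 and Sdha were 66.4%, 68.0% and 59.6% G and C, and the matches were not corrected for this. A match is a run of letters and does not show that the factor binds there.

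The arrays did not group by label, which bears on every value that follows. Across 24473 tested probes injured 1 correlated with sham 1 at r = 0.975 but with injured 2 and injured 3 at 0.600 and 0.606, whereas the correlations of sham 3 with injured 2 and injured 3 were 0.893 and 0.897. These correlations describe the arrays, and probes are not independent replicates. Injured 2 and injured 3 were nearly alike, at r = 0.982. Sham 3 was the dimmest array: its 75th percentile was 89.5 intensity units, and those of the others ranged from 214 to 284. By the scanner headers sham 1 and all injured arrays shared a scan time, while sham 2 and sham 3 each had another. Sham 2 was scanned on a different day from the other arrays. A shared scan time is taken here as a shared slide, called slide 1 for sham 1 and the injured arrays. The slides themselves were not read. Levels below are log2 intensity minus the 75th percentile of the array, so that a difference of 1 unit is a doubling, and levels of different probes are not compared with each other.

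No group difference of these enzymes was established, and the data show instead which arrays were high and low for each of them. Pgk1 and the brighter Ldha probe were nearly constant in sham arteries and spread over about 4-fold among injured arteries, with injured 1 and injured 3 high and injured 2 low. Pdk3 and the other Ldha probe were low on sham 3, injured 2 and injured 3. Sdha was highest on sham 3 and injured 3. By limma 0 of the 5 probes passed an adjusted p under 0.05, as did 0 of all 24718 probes tested (0%). At an unadjusted p under 0.05 there were 0 of 5, against 4.43% of all tested probes.

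**Figure D1:**
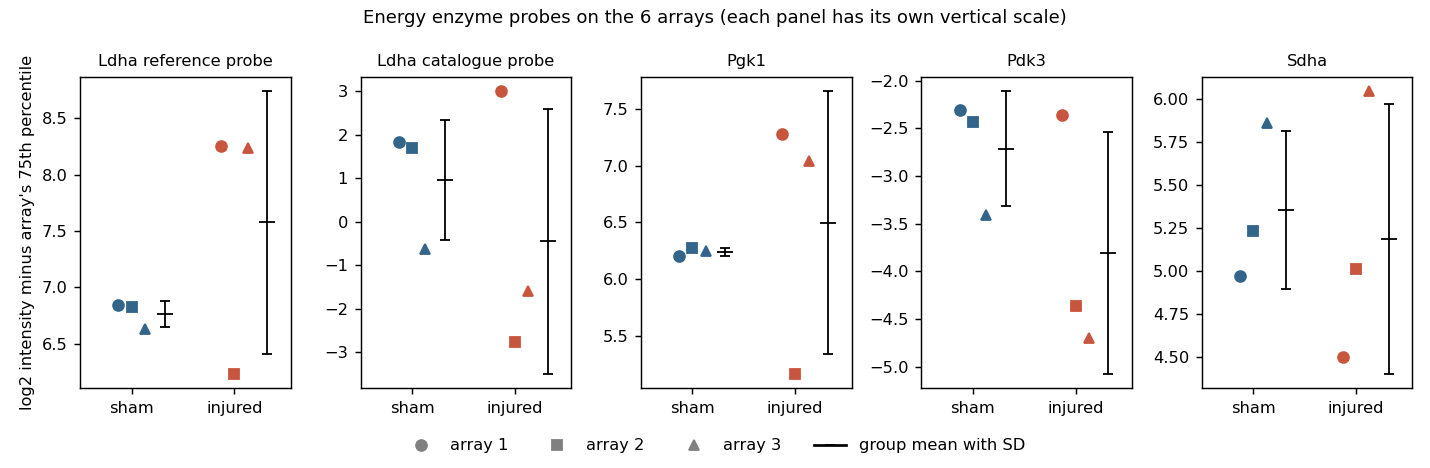
Levels of the 5 probes on each array (log2 intensity minus the array's 75th percentile), with symbols for array numbers 1 to 3 in each group and a bar for the group mean with its SD; each panel has its own scale. Pgk1 lies between 6.20 and 6.27 on the sham arrays and between 5.17 and 7.28 on the injured arrays, and in every panel the groups overlap.

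In the order of the array numbers, Pgk1 stood at 6.20, 6.27 and 6.24 in sham arteries, and in injured arteries at 7.28, 5.17 and 7.04. Its sham values had an SD of 0.035 (n = 3), and only 0.355% of tested probes had a sham SD that small. Its injured values had an SD of 1.16 (n = 3), close to the median of 1.11 over all tested probes, so the steadiness concerned the sham side. In the authors' normalized log2 values the sham arrays were less close, from 13.67 to 14.06. Relative to the sham mean, injured 1 was 2.06-fold higher, injured 3 was 1.74-fold higher and injured 2 was 2.10-fold lower. The mean difference between injured and sham was 0.26 ± 0.67 log2 units (SE, n = 3 each; limma adjusted p = 0.822, 95% interval -1.38 to 1.89). The sign of this difference was not stable, since it was -0.015 with median scaling of the arrays, -0.14 without injured 1 and -0.015 without injured 3.

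Ldha is represented by a probe printed on 30 spots, in the same set as probes for reference genes such as Actb and Hprt1, and by the catalogue probe A_44_P210461 on 10 spots. The files give both the same transcript, NM_017025, and their positions in it are not used here. The 30-spot probe, called the reference probe below, read 6.84, 6.82 and 6.63 in sham arteries, and in injured arteries 8.25, 6.23 and 8.24. Injured 1 and injured 3 thus lay 2.81-fold and 2.78-fold above the sham mean, and injured 2 lay 1.45-fold below it, the same order of arrays as for Pgk1. The sham SD was 0.12 and the injured SD 1.16 (n = 3 each). The difference between groups was 0.81 ± 0.68 log2 units (SE; limma adjusted p = 0.599, 95% interval -0.84 to 2.46). It was positive under every alternative run, from 0.40 to 1.48, the highest being without injured 2, but it did not pass the limma threshold in any of them.

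The catalogue probe of Ldha stood at 1.82, 1.70 and -0.63 for sham and at 3.00, -2.77 and -1.60 for injured arteries, again in the order of their numbers. It shared the high value of injured 1 and the low value of injured 2 with the reference probe, but it was low on injured 3, where the reference probe was high, and on sham 3. Injured 1 exceeded injured 3 by 24.3-fold on the catalogue probe and by 1.01-fold on the reference probe. These arrays correlated at only 0.606 over tested probes, and the share of probes with as large a gap is not given here. The group difference of the catalogue probe was -1.42 ± 1.60 log2 units (SE; limma adjusted p = 0.638), opposite in sign to that of the reference probe. With normexp background correction it was -0.88. Without injured 1 it was -3.15 and without injured 2 it was -0.27, neither of which passed the limma threshold. All 10 of its spots were well above background on every array, although its intensity was as low as 31.4 units on injured 2 and 58.0 on sham 3, against 868 on sham 1.

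The Ldha probes differed in which arrays were low. Within an array the SD over spots, which covers spot noise and not the spread between samples, was 0.067 to 0.14 log2 units for the reference probe and 0.083 to 0.18 for the catalogue probe. On sham 1, sham 2 and injured 1 the reference probe exceeded the catalogue probe by 5.02, 5.13 and 5.25 log2 units. On sham 3, injured 2 and injured 3 it did so by 7.26, 9.0 and 9.84. The size of each gap has no meaning of its own, since probes differ in brightness, but its change between arrays does not depend on how arrays were scaled by a constant. Between the groups the gap differed by 2.23 log2 units with overlapping values, which did not pass an exact two-sided permutation test (p = 0.2, where 3 arrays against 3 cannot give less than 0.1). It was 3.62 without injured 1 and 2.96 without sham 3, where the groups did not overlap, and 1.33 without injured 3, where they did. The overlap came from injured 1 and sham 3, so leaving out either had to remove it and is not support for a separation. With normexp background correction the gap itself on injured 2 was 7.44, where an added offset of 50 units by itself narrows such gaps. Whether the probes detect other transcripts of similar sequence was not tested.

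**Figure D2:**
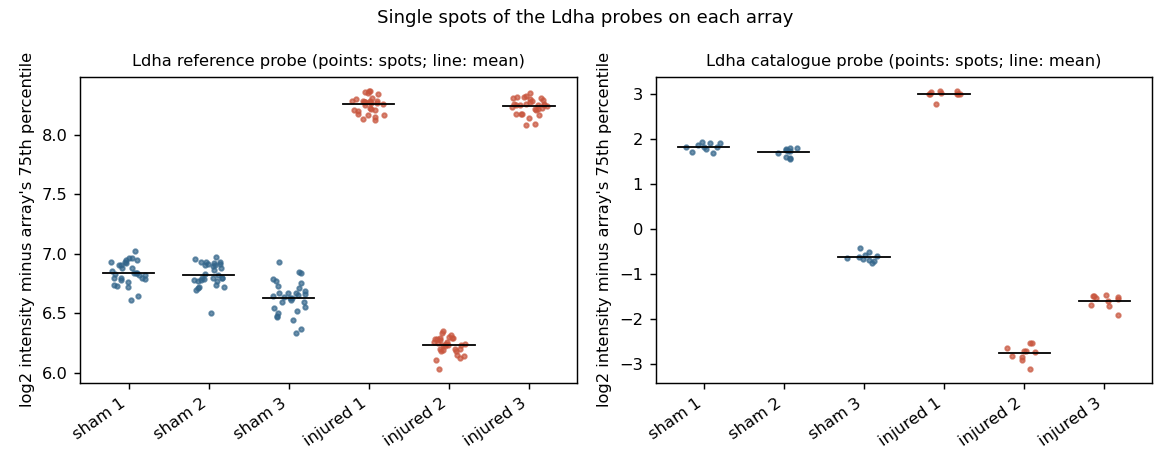
Single spots of both Ldha probes on each array (points; log2 intensity minus the array's 75th percentile) with their mean (line). The reference probe is high on injured 1 and injured 3 (8.25 and 8.24), while the catalogue probe is high on injured 1 (3.00) and low on injured 3 (-1.60), and spots of an array lie close together.

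The closeness of injured 2 and injured 3 over the whole array gives a scale for their difference in the glycolytic probes. Over 24473 tested probes these arrays differed by a median of 0.23 log2 units, or 1.17-fold. The Ldha reference probe was 4.02-fold higher on injured 3 than on injured 2, and 1.16% of tested probes differed by as much in either direction. Pgk1 was 3.66-fold higher on injured 3, and 1.45% of tested probes differed by as much. The Ldha catalogue probe was 2.24-fold higher on injured 3 and Sdha 2.04-fold higher, where 4.98% and 6.37% of tested probes differed by as much. Pdk3 read 1.26-fold lower on injured 3, a gap reached by 33.8% of tested probes, but at most 5 of its 10 spots were well above background on either array. Both arrays carry the same label and shared a scan time, and the sources used here give no difference between these samples.

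A reverse case was seen on sham 3, which differed from the mean of sham 1 and sham 2 by a median of 1.29 log2 units (2.44-fold) over all tested probes. Pgk1 differed there by only 0.0081 log2 units, and 0.290% of tested probes differed as little. The Ldha reference probe was 0.20 log2 units lower on sham 3, a size that 8.68% of probes did not exceed. In the authors' normalized values sham 3 was the highest sham array for both, at 14.06 for Pgk1 and 14.41 for the Ldha reference probe. The small gap of Pgk1 and the direction for Ldha thus depended on the scaling. Sdha was 0.76 log2 units higher, or 1.69-fold, and 68.5% of tested probes differed by at least as much. The Ldha catalogue probe was 5.23-fold lower on sham 3, a size reached by 22.5% of tested probes. Pdk3 read 2.05-fold lower there, a size reached by 58.6%. Only 2 of its 10 spots were well above background, so this fold is not firm.

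Differences between probes of the same array were compared for all 10 pairs of the 5 probes, with exact two-sided permutation tests and Benjamini-Hochberg adjustment over the pairs. Ldha relative to Pgk1 gave the tightest of these comparisons. The reference probe of Ldha exceeded Pgk1 by 0.64, 0.55 and 0.39 log2 units in sham arteries, against 0.97, 1.06 and 1.20 log2 units in injured ones. All injured values lay above all sham values, although injured 2 was low and injured 1 and 3 were high for each gene taken alone. The groups averaged 1.08 ± 0.11 and 0.53 ± 0.13 (SD, n = 3 each), a difference of 0.55 log2 units or 1.47-fold in the ratio of the signals. Its exact p was 0.1, the smallest that 3 against 3 allows, and 0.5 after adjustment over the pairs. The value was 0.44 to 0.61 under the alternatives. The groups did not overlap with quantile normalization (0.50), normexp background correction (0.57) or the median over spots (0.57), nor in the authors' values (0.50). All of these come from the same arrays, and the authors' values were close to those with quantile normalization, so they are not separate support. Leaving out arrays could not have made them overlap and so says nothing about this separation. Within slide 1, with sham 1 as its single sham array, the difference was 0.44.

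This separation needs a background. Of 24472 other tested probes, 19.6% had groups that did not overlap once the Ldha reference probe was subtracted, 19.4% with injured lower and 0.237% with injured higher. Pgk1 was 1 of those with injured lower, and a share that high means that such a separation was common for this reference. Pdk3 was the other member that separated from the Ldha reference probe, which exceeded it by 9.14, 9.26 and 10.03 log2 units in sham arteries, against 10.61, 10.60 and 12.94 in injured ones (exact p = 0.1, adjusted 0.5). The number of Pdk3 spots well above background was 2 of 10 on sham 3, 5 on injured 2 and 1 on injured 3, so these 3 differences, the highest of them included, rest on a probe near background. With normexp background correction and with quantile normalization the Pdk3 pair overlapped. The other 8 pairs overlapped, with exact p-values of 0.2 to 1. Without any subtraction 0 of the 5 probes had groups that did not overlap, against 11.8% of tested probes (6.44% with injured higher and 5.31% with injured lower).

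**Figure D3:**
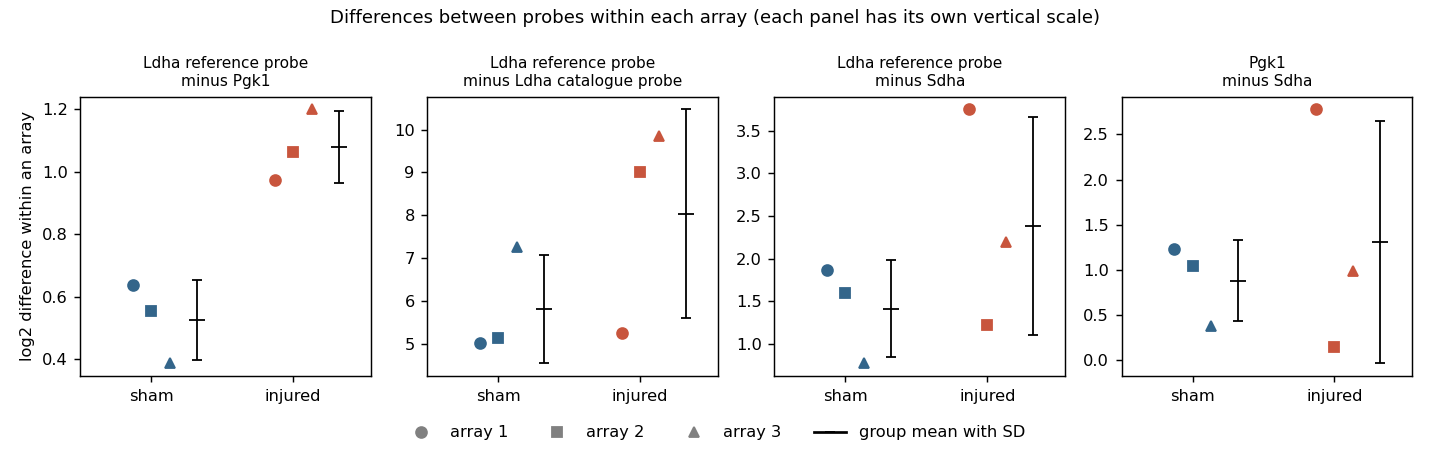
Differences in log2 level between probes of the same array for 4 of the 10 pairs, by group and array number, with the group mean and SD; each panel has its own scale. Ldha minus Pgk1 runs from 0.39 to 0.64 on sham arrays and from 0.97 to 1.20 on injured arrays, and the 3 other pairs drawn (the Ldha reference probe minus its catalogue probe and minus Sdha, and Pgk1 minus Sdha) overlap between the groups; Ldha minus Pdk3, which did not overlap, is not drawn.

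Pdk3, measured by probe A_44_P443343 on 10 spots, was the dimmest of these enzymes' probes relative to background. Its sham levels were -2.30, -2.43 and -3.40 and its injured levels -2.36, -4.37 and -4.70, in the order of the numbers. Sham 1, sham 2 and injured 1 were close together, and the other 3 arrays were lower. All 10 spots were well above background on sham 1, sham 2 and injured 1, but only 2 on sham 3, 5 on injured 2 and 1 on injured 3. Injured 2 and injured 3 lay 3.15-fold and 3.97-fold below the sham mean on arrays where at most 5 of its 10 spots cleared the background. The difference between groups was -1.10 ± 0.77 log2 units (SE, n = 3 each; limma adjusted p = 0.599, 95% interval -2.96 to 0.77). With normexp background correction it was -0.43. Without injured 1 it was -1.82 and without injured 3 it was -0.65, neither past the limma threshold.

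Sdha had sham levels of 4.97, 5.23 and 5.86 and injured levels of 4.50, 5.02 and 6.05. Injured 1 was the lowest of the 6 arrays and injured 3 the highest, 2.91-fold apart, and all sham values lay between them. The group means were 5.36 ± 0.46 and 5.19 ± 0.79 (SD, n = 3 each). The difference was -0.17 ± 0.59 log2 units (SE; limma adjusted p = 0.866, 95% interval -1.59 to 1.26), and its sign turned to positive under several scalings, so no direction is given. On injured 1, where Pgk1 and the Ldha reference probe were high, Sdha was 1.81-fold below its sham mean. On injured 3 all 3 of these probes were above their sham means, and on injured 2 all 3 were below.

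The group differences changed with the arrays that were compared, and slide cannot be told apart from which sham arrays were kept. Compared within slide 1, which gives the same values as slide as a fixed block, the differences were 0.73 for the Ldha reference probe, -2.28 for its catalogue probe, 0.29 for Pgk1, -1.51 for Pdk3 and 0.21 for Sdha. Only sham 1 stands for the controls in that comparison, which therefore lacks their spread. Without sham 3 and injured 1, which resembled the opposite label most, 2 arrays were left in each group. The difference was then -3.95 for the Ldha catalogue probe and -2.17 for Pdk3 (limma adjusted p = 0.0031 and 0.0023). Sham 3 and injured 1 were left out for their values on the same probes. Separation of the rest was thus favoured in advance, and these p-values are not support. Pdk3 had at most 5 of its 10 spots well above background on injured 2 and injured 3. Under that setting 73.6% of all tested probes were called, and weighting the arrays by their fit called these same 2 probes of 5 and 81.8% of all tested probes, so the share among these enzymes was below the background in both. The weights were lowest for sham 3 and injured 1, so weighting is not separate support either. The Ldha reference probe (0.40), Pgk1 (-0.13) and Sdha (0.43) were not called without sham 3 and injured 1. Of the 5 group differences 2 were positive and 3 negative, with a median of -0.17, beside a median of 0.10 over all tested probes.

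**Figure D4:**
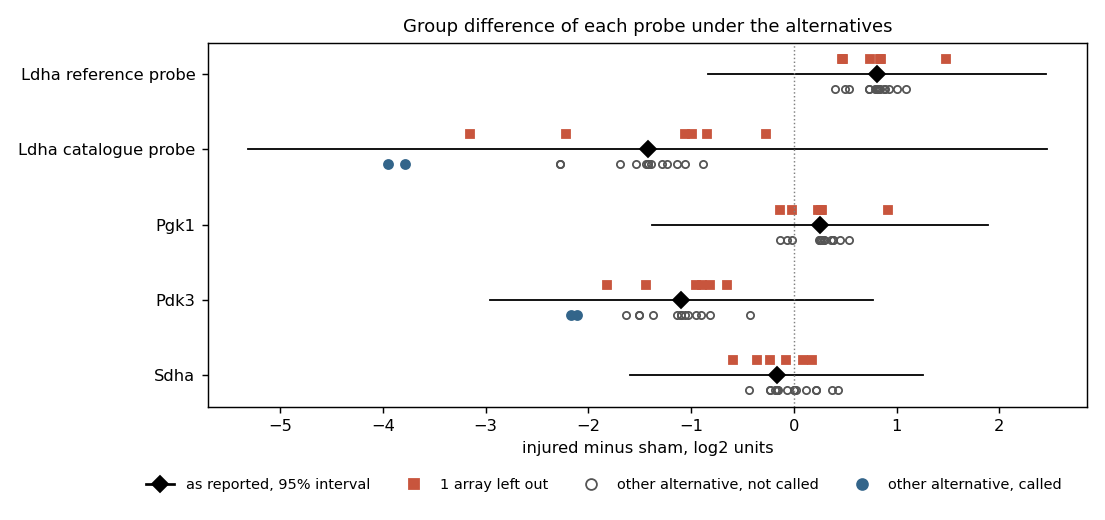
Difference between injured and sham (log2 units) of each probe as reported with its 95% interval (diamond and line), with 1 array left out (squares) and under the other alternatives (circles, filled where limma's adjusted p was under 0.05). Every reported interval includes 0, and the filled circles belong to the Ldha catalogue probe and Pdk3 only.

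The genes whose levels followed each enzyme most closely were found among 29 tested protein-coding genes that could be named, by the root mean square difference over the 6 arrays after each probe was centred on its own mean. The Ldha reference probe and Pgk1 were each other's nearest, at 0.29 log2 units, and the next genes were farther off, Ptk2b at 0.78 for Ldha and Rplp1 at 0.64 for Pgk1. The Ldha catalogue probe was nearest to Eif4b (0.43), Actb (0.59) and Ndfip1 (0.61), each of which was also low on sham 3, injured 2 and injured 3. Beta-actin, Actb, had sham levels of 4.62, 4.62 and 1.31 and injured levels of 4.40, -0.24 and -0.055. Pdk3 was nearest to Magoh (0.24), Cse1l (0.28) and Pdcd10 (0.30), with the same low arrays. On those arrays at most 5 of the 10 Pdk3 spots were well above background. Sdha was nearest to Fgf2 (0.33), Ppp2r2b (0.33) and Hprt1 (0.42). Of these Fgf2 and Ppp2r2b were dim, at -3.74 and -3.38 on injured 1, and their signal over background is not given here. The 2 Ldha probes were therefore nearest to different genes.

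Other enzymes of these pathways could not be read under a gene name. Of 109 genes listed for glycolysis and lactate, the pyruvate dehydrogenase complex and its regulators, the citric acid cycle and complex II, and the rest of the respiratory chain, 4 had a named probe, and these are the 4 genes described here. Of 43 marker genes of smooth muscle, endothelium and other cell types, 0 had a named probe, so the labelled tissue was not checked against its markers and the part of cell makeup in these values was not tested.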

How the data were processed

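Whole-artery RNA of 3 sham and 3 injured samples was hybridised to 1 single-colour (Cy3) array each, per the labels. Spot intensity values and 0 or 1 flags were deposited as Agilent Feature Extraction 11.0.1.1 wrote them, background-subtracted and detrended within each array, per the file headers, with the version from the submitters' processing notes. The authors also deposited log2 values after normalization between arrays, of a kind not stated in the labels or headers, which served as an alternative for the 3 member probes it lists.

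Here log2 intensities of a probe's spots were averaged without outlier spots (no spot was saturated), and the 75th percentile of each array over non-control probes was subtracted. A probe was tested when over 50% of its spots were well above background on at least 3 of 6 arrays. Groups were compared with limma 3.58.1 in R 4.3.3 (lmFit, eBayes), with Benjamini-Hochberg adjustment over all tested probes and a threshold of 0.05. Of 44 probes with a RefSeq accession, 39 matched the GRCr8 table. The model was tested on simulated data with independent noise for each probe and array. Such data lack the likeness between arrays described above, so this checks the computation and not the fit to these arrays. The members, gene lists and the array pair left out were chosen with earlier results of these data known, and the gaps between single arrays and the subtraction of Ldha from all probes were chosen after their values were seen. The 3 genes nearest to each member were named by smallest root mean square difference, and every member probe is named. The alternatives covered scaling, background, filters, spot averaging, blocks, weights, variance model, the authors' values and arrays left out. The normexp alternative added an offset of 50 intensity units, which by itself narrows log2 differences of dim probes. With 3 arrays a group, their number limits the precision.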

Additional observations from a re-analysis of the deposited data

How the results depend on the processing

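The count of called probes among the 5 stayed 0 under 22 of 24 alternatives, leaving out any single array included (0 to 0), and was 2 when arrays were weighted and 2 when sham 3 and injured 1 were both left out. The authors' values tested 3 of the 5 probes and the filter on all arrays 4, neither of them with Pdk3. Scan day as a fixed block gave the same differences as leaving out sham 2, and slide as a fixed block those of slide 1, so the alternatives were not all distinct. With array weights 81.8% of all tested probes were called. The weights, taken from the same values, were 0.139 for sham 3 and 0.059 for injured 1, against 1.46 to 5.30 for the other arrays. Weighting thus nearly repeated leaving both out and is not separate support. The differences of the Ldha catalogue probe and Pdk3 were -3.78 and -2.11 with array weights. Pgk1, reported at 0.26, was -0.015 with median scaling, -0.071 with array weights and -0.13 without both arrays. Sdha, reported at -0.17, was 0.12 with no scaling, 0.023 with the percentile taken over probes well above background on all arrays, 0.21 with slide as a fixed block and within slide 1, 0.43 without both arrays, 0.37 with array weights and 0.0044 in the authors' values. Leaving out 1 array gave -0.14 to 0.92 for Pgk1 and -0.60 to 0.17 for Sdha, where it was 0.085 without sham 3 and 0.17 without injured 1.

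Of 10 pairs 2 had groups that did not overlap. This was 1 with quantile normalization, 1 with normexp, 1 of the 3 pairs that the authors' values allow, 9 without both arrays, 4 within slide 1 and 2 to 6 with 1 array left out (4 without sham 3, 6 without injured 1). Leaving out arrays can only keep or raise this count, and slide 1 has a single sham array, so the higher counts are not support. The matching share over all tested probes was not computed for these settings. The authors' values and slide 1 were added for the pairs after seeing the data. The Ldha catalogue probe minus Pdk3, reported at -0.33, was 0.099 with quantile normalization and -1.33 to 0.55 with 1 array left out. Pgk1 minus Sdha, reported at 0.42, was -0.56 without both arrays and -0.31 to 1.00 with 1 left out, and the Ldha reference probe minus Sdha, reported at 0.98, was -0.025 without both. The cause of these changes was not tested.

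Samples share replicate numbers, but deviations of same-numbered arrays correlated at 0.83, -0.57 and 0.82, so the numbers were not taken as pairs. With the number as a replicate block 0 of the 5 probes were called and 3 of all tested probes, against 0 without it, and Pdk3 had a limma adjusted p of 0.358. Of the sham arrays, sham 2 and sham 3 correlated best with an injured array of another number. Signal over background limits Pdk3. The differences of Pdk3 and the Ldha catalogue probe moved to -0.43 and -0.88 with normexp. All spots of the catalogue probe were well above background on every array. Its signal was as low as 31.4 units on injured 2, where the normexp offset of 50 units by itself narrows differences. The move to -0.88 thus does not show a limit by background. Pdk3 has no value among probes well above background on all arrays.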

Other observations

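In the table normalized by the authors, which lists 3 of the 5 probes, the patterns were alike in part. For the Ldha reference probe and Pgk1, injured 1 and injured 3 were again high and injured 2 lowest, but injured 3 was now above injured 1. Sdha was again lowest on injured 1 and highest on injured 3, but its value on injured 2 was now above that on sham 2. The authors' values of the Ldha reference probe in log2 units were 14.30, 14.40 and 14.41 for sham 1, 2 and 3, beside 15.51, 14.28 and 15.96 for injured 1, 2 and 3. Those of Pgk1 were 13.67, 13.78 and 14.06 for sham, beside 14.53, 13.22 and 14.91 for injured. Those of Sdha were 12.49, 12.76 and 13.71 for sham, beside 11.98, 13.07 and 13.93 for injured. The near constancy of Pgk1 over the sham arrays was therefore seen with the percentile scaling and not in these values, where sham 3 was the highest of the 3. The lower ratio of Pgk1 to Ldha on injured arrays was seen in both.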
